A study of Mus musculus with 6 samples.

Results

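Connexins are the subunits of gap junctions, the channels that join the cytoplasm of neighbouring cells, and pannexins form large channels in the membrane of a single cell. The expression of 8 of these genes was compared between sorted brain mural cells and brain microvascular fragments. Identifiers in the data were matched to gene symbols of the mouse annotation of NCBIM37, and the 8 genes were then taken by name out of 33460 genes measured. They are 3 connexins known from vessel walls (*Gja4*, *Gja5* and *Gjc1*), a connexin of both vessel walls and astrocytes (*Gja1*), 3 connexins known from glia or the leptomeninges (*Gjb2*, *Gjb6* and *Gjc3*), and the pannexin *Panx1*. All 8 were found, out of 23 connexin and pannexin genes looked up in the mouse annotation.

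All animals carried the 2 transgenes *Pdgfrb-eGFP* and *NG2-DsRed*, in which green and red fluorescent proteins are driven by the promoters of *Pdgfrb* and of *Cspg4*, the gene of NG2. They were used at postnatal day 6. The mural cell libraries (n = 3) were made from cells positive for both reporters, sorted by FACS, and the fragment libraries (n = 3) from pieces of microvessel freed with collagenase and captured by anti-CD31 beads, which hold endothelial cells together with their mural cells. According to the methods, the tissue came from the brains of 3 mice, each divided into a piece for sorting and a piece for fragments, but the labels do not tie single libraries to animals, so that p-values measure only the spread between these libraries. Both reporters also mark other brain cells when present alone, and the sort does not separate pericytes from smooth muscle cells.

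Expression was given as FPKM, the read pairs of a gene relative to the length of its transcript and to the depth of the library. Since FPKM is per length, levels can also be compared between genes. The libraries held approximately 5.40 to 5.94 M read pairs on protein-coding genes for the fragments and 1.03 to 2.36 M for the mural cells, so that low values are less certain in the mural cells. Of 8 mural cell markers, all 8 were enriched in the mural cell libraries, with ratios of 6.47 (*Cspg4*) to 10.9 (*Kcnj8*). Cells were sorted on a reporter driven by the *Cspg4* promoter, so the enrichment of *Cspg4* is no separate check of the sort. The mural cell libraries nevertheless kept much endothelial RNA. Of 12 endothelial markers, 11 had a lower mean in them than in the fragments and 7 were lower at an adjusted p under 0.05 (limma), but only 2 of these were also reduced below 0.5 of the fragment mean. The summed level of the 12 was 83.6%, 70.0% and 65.0% of the fragment mean in mural cell libraries 1, 2 and 3. Mural cell library 3 stood apart from the others by its astrocyte markers, whose sum was 741 FPKM against 189 and 175 in mural cell libraries 1 and 2 and 261 to 351 in the fragments. Of the markers of oligodendrocyte progenitors and of neurons, 5 each were tested and none passed both an adjusted p under 0.05 and a change of 2-fold. The summed level of 8 microglia markers was 1572 to 1777 FPKM in the fragments and 126 to 164 in the mural cells. Mural cells were therefore compared here with a mixed tissue and not with pure endothelium. In such bulk samples, more cells of a type and more RNA per cell cannot be told apart.

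A gap junction is built when a connexin ring in one cell docks with a ring in the next, and small ions and messengers then pass between them. In arteries and capillaries, such junctions join endothelial cells to each other, mural cells to each other, and endothelium to mural cells, and they are known for spreading calcium and voltage signals along the vessel wall. In astrocytes they join the cells into a network, and in oligodendrocytes they are part of the coupling that maintains myelin.

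The promoters of *Gja4* and *Gja5* are shown because these 2 vascular connexins, which are known to occur together in arterial endothelium, gave unlike results. The RefSeq promoter table, of build GRCm38.p6, held 7 of the 8 genes, and *Gjc1* had no entry there. The 250 bases before each start matched NCBIM37 at 1 place each. They lie on the minus strand at chr4:126991284-126991533, directly before *Gja4*, and on the plus strand at chr3:96836075-96836324, inside the annotated span of *Gja5*, which has 3 annotated transcripts. Capitals mark the GC box, GGGCGG on either strand, in the direction in which it was found.
Gja4: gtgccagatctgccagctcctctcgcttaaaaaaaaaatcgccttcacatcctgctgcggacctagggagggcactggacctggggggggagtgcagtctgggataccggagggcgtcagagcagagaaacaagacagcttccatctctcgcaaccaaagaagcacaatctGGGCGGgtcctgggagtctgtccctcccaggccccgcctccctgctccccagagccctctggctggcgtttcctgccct
Gja5: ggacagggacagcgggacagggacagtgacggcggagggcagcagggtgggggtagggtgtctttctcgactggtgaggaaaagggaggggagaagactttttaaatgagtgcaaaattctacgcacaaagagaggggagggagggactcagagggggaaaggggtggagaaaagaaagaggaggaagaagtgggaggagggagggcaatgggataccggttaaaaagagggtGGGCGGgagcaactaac
Each held 1 match to the GC box, 79 bases before the start in *Gja4* and 17 bases before it in *Gja5*. *Gjb2* held 2 matches, and *Gja1*, *Gjb6*, *Gjc3* and *Panx1* held none, where 32.7% of 32851 promoters of the same length had at least 1. No promoter of the 7 genes held the TATA box TATAAA (12.4% of all promoters) or a CArG box, the binding motif of serum response factor (1.47% of all promoters). The E box CANNTG, found in 66.2% of all promoters, was absent from the windows of *Gja4*, *Gja5* and *Panx1*. The core TGGGAA, bound by the Notch effector RBPJ and found in 21.6% of all promoters, was found in the window of *Panx1* alone among the 7. By GC content, *Gja4* (61.2%) and *Gja5* (56.4%) both lay above the median promoter (52.4%), and *Gjb2* was the richest with 69.2%. These are descriptions of the letters in a window and say nothing of binding.

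Of the 8 genes, 7 reached an FPKM of 1 in 3 or more of the 6 libraries and were tested (limma on log2(FPKM + 1), with Benjamini-Hochberg adjustment over 14801 genes). A gene was called enriched when its adjusted p was under 0.05 and its ratio of mean FPKM above 2, and lower when the ratio was under 0.5. *Gjc1* and *Gja4* were enriched in mural cells, where 6.43% of all tested genes were. None of the 7 was lower in mural cells, where 10.1% of all tested genes were. The median log2 fold change of the 7 genes was 0.05, against -0.12 for all tested genes.

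*Gjc1* (ENSMUSG00000034520, chr11:102660893-102681014, minus strand) encodes connexin 45, a connexin known from vascular smooth muscle and from the conduction system of the heart. It had the highest mean level of all 8 genes in the mural cells. FPKM was 306, 310.3 and 220.4 in mural cell libraries 1, 2 and 3, and 48.9, 50.4 and 33.6 in fragment libraries 1, 2 and 3. The groups did not overlap, and in each group library 3 was the lowest. The means were 279 ± 50.6 and 44.3 ± 9.29 (SD, n = 3 each), a ratio of 6.29. The difference of 2.63 ± 0.20 on the log2(FPKM + 1) scale (SE, 95% confidence interval 2.16 to 3.11) was past the threshold (limma, adjusted p = 2.24e-04). Only 0.926% of the tested genes had a higher mean in the mural cells, while in the fragments 14.8% had. Among the 952 enriched genes *Gjc1* ranked 33rd by level and 280th by ratio. Smooth muscle markers were high in the same libraries, with 5 of 6 enriched (*Lmod1* among them missed the threshold without the filter, adjusted p = 0.0524) and a sum of 367%, 758% and 862% of the fragment mean in mural cell libraries 1, 2 and 3, where *Gjc1* was at 689.8%, 700.2% and 497%. The part of smooth muscle cells in the level of *Gjc1* was not tested.

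*Gja4* (ENSMUSG00000050234, chr4:126988665-126991283, minus strand) encodes connexin 37, which is known best from arterial endothelium. It was nevertheless the second most abundant of the connexins in the mural cells. FPKM was 212, 249.6 and 181 in the 3 mural cell libraries, against 70.4, 90.4 and 61.6 in the fragments. Every mural cell library thus lay above every fragment library. The means were 214 ± 34.2 and 74.1 ± 14.7 (SD, n = 3 each), a ratio of 2.89, and the log2 fold change was 1.53 ± 0.18 (SE, 95% confidence interval 1.10 to 1.95, limma, adjusted p = 0.00118). The gene has 1 annotated transcript, so that the read pairs behind these values could be estimated. Rounded, they were 558, 276 and 211 in the mural cells and 477, 567 and 428 in the fragments. By level *Gja4* ranked 53rd among the enriched genes, and by ratio 631st.

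*Gja5* (ENSMUSG00000057123, chr3:96708616-96881339, plus strand) encodes connexin 40, likewise an arterial endothelial connexin. FPKM was 17.9, 21.7 and 22.6 in the mural cells and 18.6, 31.8 and 20.4 in the fragments. The groups overlapped, and the highest value, in fragment library 2, stood above the other 5. The means of 20.8 ± 2.50 and 23.6 ± 7.13 (SD, n = 3 each) gave a log2 fold change of -0.15 ± 0.22 (SE, 95% confidence interval -0.67 to 0.38), which did not pass the test (limma, adjusted p = 0.689). The sign of this small difference depended on fragment library 2, since without it the log2 fold change was 0.08.

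**Figure D1:**
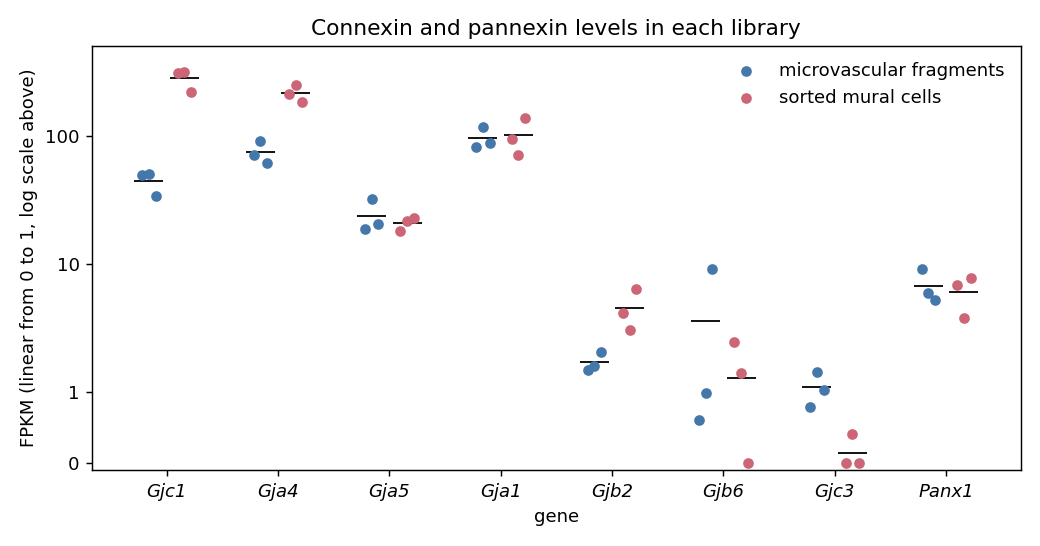
Each point is the FPKM of a gene in 1 library, with 3 fragment libraries (blue) and 3 mural cell libraries (red) per gene, and the black line is the mean of the group. The axis is linear from 0 to 1 and logarithmic above. *Gjc1*, *Gja4* and *Gjb2* lie higher in every mural cell library than in any fragment library, *Gjc3* lies lower, and the groups of the other 4 genes overlap. How many of all tested genes lie without overlap was not counted, so this separation cannot be called particular to these genes.

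Endothelial markers accompany these values. All 6 arterial endothelial markers were lower in mural cells at an adjusted p under 0.05 (limma), 3 of them also past the 2-fold limit. *Hey1* among them missed that adjusted p with a replicate block (limma, 0.0758) or without the filter (0.0522). The list had sums of 95.8 to 102 FPKM in mural cells and 184 to 230 in fragments, with a median of 33.5% of the fragment mean over its genes. *Gkn3*, an arterial marker of the brain, was at 0 in all 3 mural cell libraries. In percent of the fragment mean this list stood at 46.3%, 49.3% and 46.4% in mural cell libraries 1, 2 and 3, *Gja5* at 75.9%, 92.0% and 95.9%, and *Gja4* at 286%, 337% and 245%. The part of endothelial RNA in the level of *Gja5* was not tested. The ratio of *Gja4* to *Gja5* was 3.79, 2.84 and 3.01 in the fragments and 11.8, 11.5 and 8.01 in the mural cells, so that the vascular pair stood further apart in every mural cell library.

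Both enriched connexins had smaller ratios than the median of the mural cell markers. The 8 markers had a median ratio of 9.10, against 6.29 for *Gjc1* and 2.89 for *Gja4*. The lowest marker ratio, 6.47 for *Cspg4*, was close to that of *Gjc1*, which was 5.61 to 6.95 when 1 library was left out. Each connexin was also expressed in percent of the geometric mean of the 8 markers in the same library, which was 223, 250.2 and 204 FPKM in the mural cells and 31.3, 26.9 and 20.7 in the fragments. *Gjc1* was then at 137%, 124% and 108% in the mural cells and at 156%, 187% and 162% in the fragments. *Gja4* was at 95.1%, 99.7% and 88.9% in the mural cells and at 225%, 335% and 297% in the fragments. Per unit of mural marker, both genes were thus lower in the sorted cells, without overlap. This restates their smaller ratios and is no separate result, since any gene with a smaller ratio than the markers falls on this scale. The fragments also hold endothelial RNA, so these values are not levels per mural cell. On the same scale the fall was greater for *Gja5*, with 92.0% ± 29.8 in the fragments and 9.27% ± 1.62 in the mural cells (SD, n = 3 each).

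The genes with the most similar values to each vascular connexin were sought by Euclidean distance of log2(FPKM + 1) over the 6 libraries. For *Gjc1* they were *Cspg4* (distance 0.42), which drives one of the reporters, the mural cell channel subunit *Abcc9* (0.68) and the integrin *Itga1* (0.72). For *Gja4* they were the septins *Sept7* (0.47) and *Sept9* (0.59) and *Cobll1* (0.61). For *Gja5* they were *Ebna1bp2* (0.37), *Wdr11* (0.40) and *Surf2* (0.42). Of these, only the first list held genes from the mural marker list.

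*Gja1* (ENSMUSG00000050953, chr10:56097106-56110225, plus strand) encodes connexin 43, the main connexin of astrocytes, which is also found in endothelium and smooth muscle. FPKM was 93.9, 70.7 and 138 in the mural cells and 81.4, 116 and 87.3 in the fragments. The groups overlapped, and both the lowest and the highest of the 6 values were in mural cells. The means were 101 ± 34.1 and 95.03 ± 18.7 (SD, n = 3 each), with a log2 fold change of 0.05 ± 0.25 (SE, 95% confidence interval -0.54 to 0.64, limma, adjusted p = 0.913), whose sign turned to -0.06 with quantile normalization. In its level *Gja1* stood high in both groups, with 4.59% of the tested genes above it in mural cells and 4.54% in fragments. The genes nearest to it in value were *Kif1b* (distance 0.36), *Fam129b* (0.46) and *Sel1l* (0.57).

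The high value of *Gja1* was in mural cell library 3, in which the 9 astrocyte markers were also high. In mural cell libraries 1, 2 and 3 *Gja1* stood at 98.8%, 74.4% and 145% of the fragment mean, and the summed astrocyte markers at 63.7%, 59.0% and 250%. None of the 9 markers was called in either direction, and none was at 0 in all mural cell libraries. *Aqp4*, the water channel of astrocyte endfeet, was at 12.5, 11.6 and 52.6 FPKM in the mural cells and at 25.0, 33.7 and 32.8 in the fragments. Without mural cell library 3 the log2 fold change of *Gja1* was -0.20 (95% confidence interval -0.69 to 0.29, limma, adjusted p = 0.521). The part of astrocyte RNA in the level of *Gja1* was not tested.

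**Figure D2:**
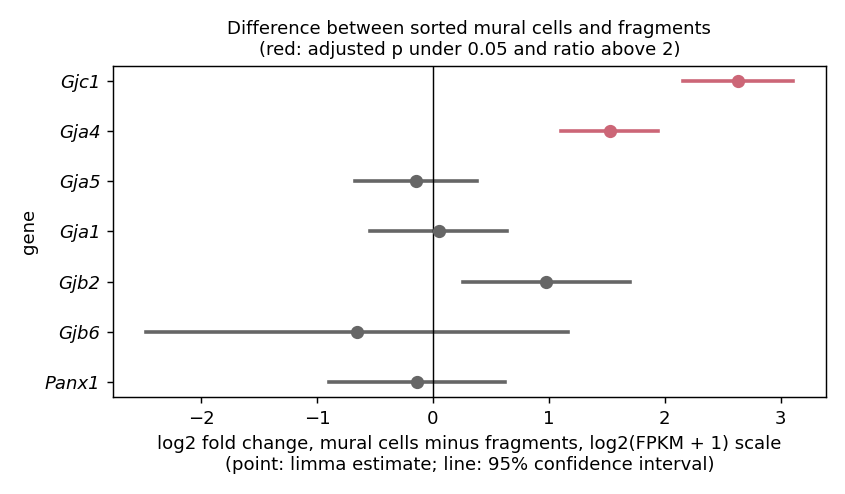
Points give the limma log2 fold change, mural cells minus fragments, on the log2(FPKM + 1) scale for the 7 tested genes, and lines give the 95% confidence interval. *Gjc1* and *Gja4* (red) passed both thresholds, the interval of *Gjb2* lay above 0 without passing the adjusted p, and the interval of *Gjb6* was the widest, from -2.48 to 1.16.

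The 3 glial connexins were all low. *Gjb2* (ENSMUSG00000046352, chr14:57717437-57723539, minus strand) encodes connexin 26, known from the leptomeninges and from astrocytes. FPKM was 4.09, 3.04 and 6.33 in the mural cells and 1.49, 1.61 and 2.05 in the fragments. The groups did not overlap, and the means of 4.49 ± 1.68 and 1.71 ± 0.294 (SD, n = 3 each) gave a ratio of 2.62. The log2 fold change of 0.98 ± 0.31 (SE, 95% confidence interval 0.26 to 1.70) missed the threshold, however (limma, adjusted p = 0.0602). It passed with quantile normalization (adjusted p = 0.0122), without the intensity trend (adjusted p = 0.0372) and without mural cell library 2 (adjusted p = 0.0374). These values rest on few read pairs, with 16, 5 and 11 in the mural cells and 15, 15 and 21 in the fragments.

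The list of fibroblast and leptomeningeal markers was mixed. Of 8 genes 7 were tested, and 4 were enriched, the collagens *Col1a1* and *Col3a1* and the proteoglycans *Dcn* and *Lum*. The other 4 were not called. *Slc6a13* (ratio 2.19, limma, adjusted p = 0.454) and *Aldh1a2* (ratio 1.16, adjusted p = 0.808) had a higher mean in the mural cells, and *Crabp2* (2.72 FPKM in fragments and 0.776 in mural cells, adjusted p = 0.328) and the untested *Slc22a6* (0.836 and 0.405 FPKM) a lower one. The sum over the list, most of it from the 2 collagens, was 312 to 421 FPKM in the mural cells and 44.7 to 48.5 in the fragments. In mural cell libraries 1, 2 and 3 the sum was 664%, 895% and 800% of the fragment mean, and *Gjb2* was 239%, 178% and 369% of it. The library with the lowest *Gjb2*, at 5 read pairs, thus had the highest sum. With so few read pairs, the order of the mural cell libraries in *Gjb2* is uncertain. The part of such cells in the level of *Gjb2* was not tested, and mural cells themselves are known to express collagens.

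*Gjb6* (ENSMUSG00000040055, chr14:57742140-57752448, minus strand) encodes connexin 30, an astrocyte connexin that appears late in development. FPKM was 2.43, 1.41 and 0 in the mural cells and 0.611, 0.991 and 9.15 in the fragments. A single library, fragments 3, was far above the other 5, whereas the summed astrocyte markers of that library were 93.7% of the fragment mean. The log2 fold change of -0.66 ± 0.78 (SE) did not pass the test (limma, adjusted p = 0.597), and its 95% confidence interval of -2.48 to 1.16 allows a change in either direction. For a transcript of this length 1 read pair was worth 0.296 to 0.705 FPKM in the mural cells, so that 0 in mural cell library 3 does not show absence. *Gjb6* lies 18.6 kb from *Gjb2*. Within the fragments both were highest in library 3, and within the mural cells *Gjb2* was highest in library 3, where *Gjb6* was at 0.

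*Gjc3* (ENSMUSG00000056966, chr5:138395037-138404187, minus strand) encodes connexin 29, made by oligodendrocytes and Schwann cells. FPKM was 0, 0.405 and 0 in the mural cells and 0.793, 1.43 and 1.04 in the fragments. It was too low to be tested. The read pairs behind it were 1 over the 3 mural cell libraries and 48 over the 3 fragment libraries (12, 20 and 16). Pooled over the libraries of each group at equal depth, these gave a ratio of 0.0847. Its exact 95% interval of 0.00210 to 0.495 covers counting error only. The ratio of mean FPKM, the measure used for the other genes, was 0.124. When no filter was applied the gene was called lower (log2 fold change -0.89, limma, adjusted p = 0.0418). Of 6 oligodendrocyte markers tested, 3 were lower in the mural cells. The sum over the list of 7 was 26.2 to 41.5 FPKM there and 49.7 to 83.7 in the fragments, and *Mobp*, a myelin gene, was at 0 in all mural cell libraries. *Mag*, one of the 3, was near the threshold (limma, adjusted p = 0.0490) and missed it with a replicate block (0.0702) or without the filter (0.0832), and *Cldn11* had a higher mean in the mural cells (ratio 1.44, not called). The part of oligodendrocytes in the level of *Gjc3* was not tested.

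**Figure D3:**
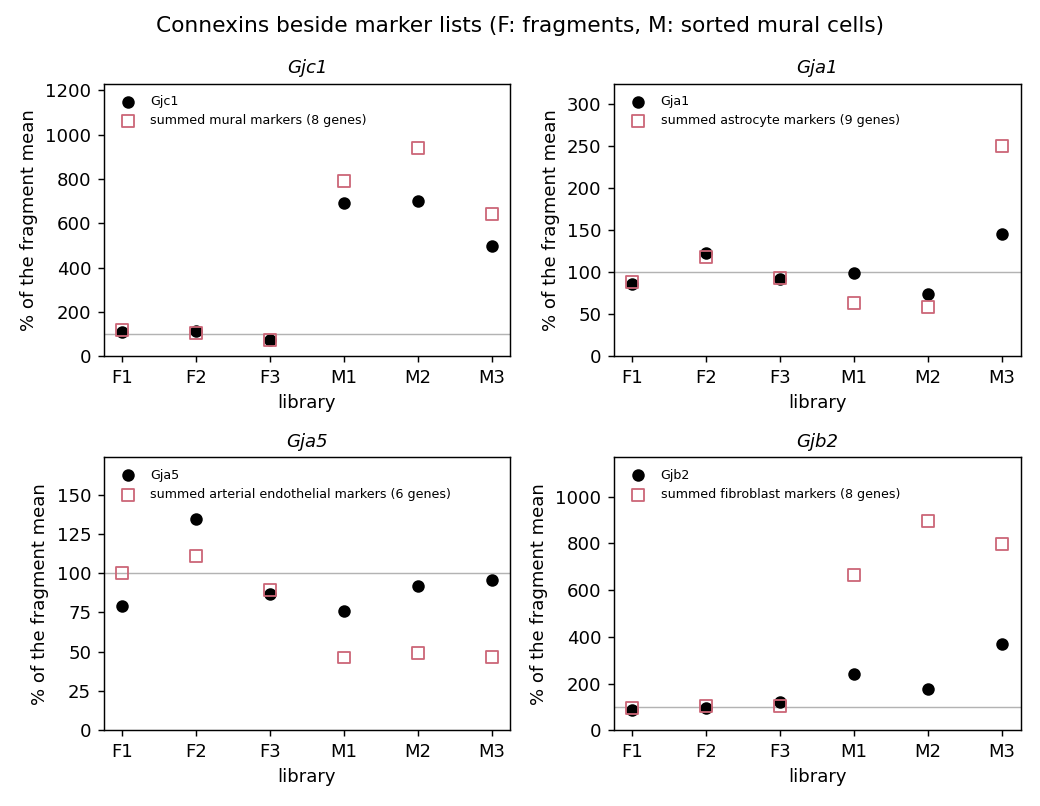
Black circles give *Gjc1*, *Gja1*, *Gja5* and *Gjb2* in each library (F1 to F3, fragments, M1 to M3, mural cells) in percent of the mean of the fragment libraries, drawn as the grey line, and red squares give the summed FPKM of a marker list in the same percent. Each panel has its own linear axis from 0. *Gja1* and the astrocyte markers are both highest in M3, and *Gja5* lies above the arterial endothelial markers in M1 to M3.

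The vascular and glial connexins were also summed. *Gja4*, *Gja5* and *Gjc1* together came to 536, 582 and 424 FPKM in the mural cells and to 138, 173 and 116 in the fragments. *Gjb2*, *Gjb6* and *Gjc3* together came to 6.53, 4.86 and 6.33 FPKM in the mural cells and to 2.89, 4.02 and 12.2 in the fragments. The vascular sums did not overlap between the groups, and the glial sums did. The vascular difference came from *Gjc1* and *Gja4*, whereas *Gja5* overlapped between the groups and had a ratio of 0.879. How many of all tested genes lie without overlap was not counted, so this contrast cannot be called particular to these classes. Of the 2 sums together, the glial connexins made up 1.20%, 0.829% and 1.47% in the mural cells and 2.05%, 2.28% and 9.57% in the fragments, where the last value is the library with high *Gjb6*. When *Gja1* was counted with the glial connexins, their mean share was 17.6% in the mural cells and 41.8% in the fragments, so that the split between vascular and glial depends on where this shared connexin is placed. Most of the glial sum in the mural cells was *Gjb2* (mean 4.49 of 5.90 FPKM), which is also known from the leptomeninges. In mural cell library 3 it was the whole sum. The glial share there is thus mainly the share of *Gjb2*.

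The order of the genes by mean FPKM differed between the groups. In the mural cells it was *Gjc1*, *Gja4*, *Gja1*, *Gja5*, *Panx1*, *Gjb2*, *Gjb6* and *Gjc3*. The libraries of *Gjc1* and *Gja4* overlapped in range, as did those of *Panx1* and *Gjb2* and those of *Gjb6* and *Gjc3*, while the other neighbours did not. In the fragments it was *Gja1*, *Gja4*, *Gjc1*, *Gja5*, *Panx1*, *Gjb6*, *Gjb2* and *Gjc3*. There *Gja1* overlapped with *Gja4*, *Panx1* with *Gjb6* and *Gjb6* with *Gjb2*. *Gjc1* thus moved from below *Gja1* to above it, and the ratio of *Gjc1* to *Gja1* was 0.601, 0.433 and 0.385 in the fragments and 3.25, 4.39 and 1.60 in the mural cells. The ratio of *Gja4* to *Gjc1* was 1.44, 1.79 and 1.83 in the fragments and 0.694, 0.804 and 0.823 in the mural cells.

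The 7 connexins summed to 636, 657 and 568 FPKM in the mural cells and to 222, 293 and 215 in the fragments. The mean total was 621 ± 46.4 against 243 ± 43.0 (SD, n = 3 each). *Gjc1* contributed 44.7% ± 5.13 of the total in mural cells and 18.3% ± 3.32 in fragments, and *Gja1* 16.6% ± 6.93 and 39.0% ± 2.07. The share of *Gja4* was 34.4% ± 3.18 in mural cells and 30.4% ± 1.58 in fragments, and the libraries of the groups did not overlap (31.9% to 38.0% and 28.6% to 31.7%). *Gja5* made up 3.37% ± 0.585 and 9.57% ± 1.24. Connexin 45 and connexin 37 transcripts were thus the main part of connexin mRNA in the sorted cells, and connexin 43 and connexin 37 transcripts in the fragments.

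**Figure D4:**
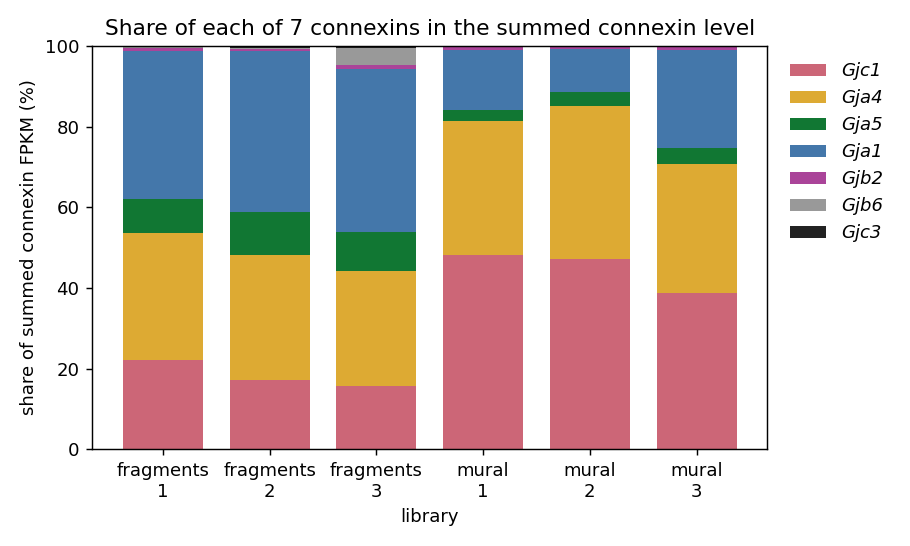
Each bar is 1 library and its segments are the shares of 7 connexins in their summed FPKM, in percent. *Gjc1* takes 38.8% to 48.0% in the mural cells and 15.6% to 22.0% in the fragments, and *Gja1* 10.8% to 24.3% and 36.6% to 40.6%.

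*Panx1* (ENSMUSG00000031934, chr9:14809605-14849922, minus strand) encodes pannexin 1, a widely expressed channel that releases ATP. FPKM was 6.77, 3.76 and 7.68 in the mural cells and 9.06, 5.88 and 5.19 in the fragments. The groups overlapped, with means of 6.07 ± 2.05 and 6.71 ± 2.06 (SD, n = 3 each). The log2 fold change was -0.14 ± 0.32 (SE, 95% confidence interval -0.90 to 0.62, limma, adjusted p = 0.797), and it was 0.03 with quantile normalization.

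The remaining 15 connexin and pannexin genes of the annotation were near or at 0. None of them reached the level needed for testing, 12 were at 0 in all 3 mural cell libraries, and 5 were at 0 in all 6. The highest value was 2.72 FPKM for *Gjd3* in fragment library 1, a gene that was at 0.736 and 0 in the other fragment libraries. *Panx2*, a pannexin of the nervous system, was the only one with a value above 0 in every library, with 0.534 to 0.635 FPKM in the mural cells and 0.412 to 1.56 in the fragments.

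Proteins that bind, transport, phosphorylate or degrade connexins were looked at as a list of 15 genes, of which 14 were tested. Of these, 2 were enriched (14.3%, against 6.43% of all genes), none was lower and 12 were called in neither direction (3 of them higher at an adjusted p under 0.05 but with ratios under 2), and the median log2 fold change was 0.31. *Dbn1*, which encodes drebrin, an actin-binding protein that holds connexin 43 at the membrane, was at 152, 116 and 162 FPKM in the mural cells and at 55.5, 42.2 and 36.0 in the fragments, without overlap. Its ratio was 3.22 (log2 fold change 1.67 ± 0.20, SE, limma, adjusted p = 0.00114). *Nov*, which encodes the matricellular protein CCN3, a binding partner of connexin 43, was at 8.03, 5.54 and 11.9 FPKM in the mural cells and at 1.39, 1.42 and 1.69 in the fragments. Its ratio was 5.65 (log2 fold change 1.87 ± 0.31, SE, limma, adjusted p = 0.00521). Both bind the product of *Gja1*, which itself passed in neither direction. The other 12, with the scaffold gene *Tjp1* among them, had log2 fold changes of -0.37 to 0.94.

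Genes for the handling of extracellular ATP, which pannexin and connexin channels can release, were spread in both directions. Of 14 genes 12 were tested. Among these, 4 were enriched (33.3%, against 6.43% of all genes), 5 were lower (41.7%, against 10.1%) and 3 neither. The median log2 fold change was -0.15. The largest ratio was that of *P2ry14*, a receptor for UDP-sugars, at 65.6, 59.7 and 44.3 FPKM in the mural cells and 6.79, 6.30 and 5.05 in the fragments (ratio 9.35, limma, adjusted p = 1.31e-04). The adenosine receptors *Adora2a* (ratio 2.42, adjusted p = 7.21e-04) and *Adora2b* (ratio 3.02, adjusted p = 0.0159) and the ATP-gated channel of smooth muscle *P2rx1* (ratio 2.31, adjusted p = 0.0192) were the other 3 in limma. Those called lower were *P2ry12* (8.67% of the fragment mean), *P2ry6* (9.24%), *P2rx7* (11.01%), the ATP-degrading ectoenzyme *Entpd1* (30.7%) and *P2rx4* (42.4%). Microglia express these 5 genes, and *P2ry12* is also one of the 8 microglia markers, all of which were lower in the mural cells, at 7.50% to 9.77% of the fragment mean in sum. *Entpd1* and *P2rx4* fell less than these markers, and the part of microglia or of other cells in these 5 differences was not tested.

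The *Lrrc8* genes encode subunits of volume-regulated anion channels and are related in sequence to the pannexins. Of 5 genes 4 were tested, and *Lrrc8b* alone was enriched (25% of the tested ones, against 6.43% of all genes). It was at 31.0, 32.0 and 31.7 FPKM in the mural cells and 13.6, 13.1 and 10.9 in the fragments (ratio 2.52, log2 fold change 1.27 ± 0.15, SE, limma, adjusted p = 0.00114). *Lrrc8a*, the obligatory subunit, and *Lrrc8c* and *Lrrc8d* passed in neither direction (log2 fold changes -0.17 to 0.42). *Lrrc8e* was at 0 in all mural cell libraries and at 0.117 to 0.193 FPKM in the fragments, too low to be tested.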

How the data were processed

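RNA-seq was performed on 3 libraries of sorted mural cells and 3 of microvascular fragments. Paired-end reads of 125 bases were mapped by the authors to the NCBIM37 genome (TopHat2 2.0.4), duplicates were taken out (Picard 1.92), and FPKM per Ensembl gene were deposited (Cufflinks 2.2.1). Duplicate removal can lower the values of highly expressed genes. How Cufflinks scaled the libraries is not given in the sources used here.

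Of 9 identifiers listed more than once, 1 line was kept. Genes that reached an FPKM of 1 in 3 or more libraries were fitted on log2(FPKM + 1) with limma 3.58.1 and an intensity trend (R 4.3.3), without pairing. FPKM are not counts, so no count test was used. Fold changes on this scale understate the change of low genes. Read pairs were recovered from genes with 1 transcript, by a search for the value of 1 read pair in each library. At that value, 97.8% to 98.4% of 800 low values per library were whole multiples within 0.05. This share was itself the quantity fitted and is no separate check. Depth was then estimated over all protein-coding genes, with the longest transcript of each as its length. Larger values, such as those of *Gja4*, were rounded to the nearest read pair and are estimates. Tables were handled in Python 3.11.15 (pandas 2.3.3, NumPy 2.4.6).

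The named genes are the 8 genes, the called genes of the related lists and the 3 genes closest in value to each of 4 connexins. *Gjd3*, *Panx2*, the fibroblast genes, *Aqp4*, *Mobp*, *Mag*, *Cldn11*, *Lmod1*, *Hey1* and *Gkn3* were added after their values were seen. The genes and lists were chosen with earlier results of these data known. Alternatives were other pseudocounts, scalings, filters and thresholds, a replicate block, and leaving out each library. Some genes of the lists are not reported here by name.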

Additional observations from a re-analysis of the deposited data

How the results depend on the processing

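*Gjc1* and *Gja4* were called enriched in all 14 alternatives examined gene by gene, which include the main fit at an adjusted p under 0.01. Their log2 fold changes were 2.45 to 2.79 (limma, adjusted p up to 0.00143) and 1.402 to 1.68 (limma, adjusted p up to 0.00644). The 2 enriched genes among the 8 became 3, with *Gjb2*, under quantile normalization, without the intensity trend and without mural cell library 2, so that leaving out 1 library gave 2 to 3. No gene was lower, except that *Gjc3* made it 1 when no filter was applied. *Gjb2* and *Gjb6* could not be tested at a minimum FPKM of 5, nor *Gjb6* without fragments 3, mural 1 or mural 2. Small differences turned their sign. For *Gja1* the log2 fold change was -0.0553 with quantile normalization, and -0.20 to 0.28 when 1 library was left out, with -0.05 without fragments 1, -0.0031 without fragments 3 and -0.20 without mural 3. For *Gja5* it was -0.29 to 0.08, with 0.0789 without fragments 2. For *Panx1* it was 0.0261 with quantile normalization and -0.31 to 0.12 when 1 library was left out, with 0.07 without fragments 1 and 0.12 without mural 2. *Gjb6* kept its sign without passing, but ranged from -1.41 with a pseudocount of 0.1 to -0.0198 with quantile normalization, with -1.15 without fragments 1 and -0.15 without mural 3. The cause was not tested. Over all genes, 952 enriched and 1493 lower became 1212 and 1080 with quantile normalization, which moved the median log2 fold change from -0.12 to 0.01. The count of lower genes was 948 at a minimum FPKM of 5, 845 at an adjusted p under 0.01, and 607 to 1733 when 1 library was left out (654, 702 and 607 without fragments 1, 2 and 3). The count of enriched genes was 691 to 949 when 1 library was left out. The mean glial share was 41.8% in fragments and 17.6% in mural cells with *Gja1* counted as glial, and 2.17% to 5.92% and 1.02% to 1.34% when 1 library was left out.

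In a fit that had a replicate block the calls among the 8 genes were the same, 2 enriched (*Gjc1*, adjusted p = 0.000473, *Gja4*, adjusted p = 0.00115) and 0 lower, with 900 enriched and 1344 lower over all genes. Deviations of same-numbered libraries correlated at only 0.08, 0.02 and 0.05, though each library correlated best with its own number. These values do not settle whether same-numbered libraries share a brain. Low depth of the mural cell libraries limits *Gjb2*, *Gjb6* and *Gjc3*.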
